A study of Mus musculus with 12 samples.

Results

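The p53 pathway and the Ink4 locus hold the genes that stop a cultured mouse fibroblast from dividing without limit, and immortal lines arise when these checkpoints are lost or overridden. 10 of the 34866 genes in the deposited table were read for this: Trp53, Mdm2, Cdkn1a, Cdkn2a, Cdkn2b, Ccng1, Bax, Bbc3, Trp53inp1 and Phlda3. They were chosen by symbol, with earlier results of these data known. Each had 1 Ensembl identifier and a mean above the minimum of 1 TPM set for testing. Polyadenylated RNA came from 12 wells of immortalized mouse embryonic fibroblasts (MEFs), 3 wells seeded from the MEFs of each of 4 groups: male Sirt3 wild type (WT), male Sirt3 knock-out (KO), female WT and female KO. Sirt3 is a mitochondrial deacetylase, and the comparison asked how its loss acts in each sex. WT embryos were 129S1/SvImJ and KO embryos were Sirt3-/- from a Jackson Laboratory stock, all 13 days old, with no treatment in any group, and RNA was taken at passage 6, 48 h after seeding. All 4 groups had been immortalized, by the study's methods with an SV40 T-antigen plasmid, while the series text names only a plasmid with an SV40 promoter. T-antigen transcripts were not analysed here. The number of lines per group is not stated, so if each group was 1 line, sex, genotype and immortalization event cannot be told apart, and the tests measure only the spread between wells. WT and KO embryos came from different stocks, so genotype and stock cannot be told apart whatever the number of lines.

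As background, p53 is a transcription factor that is made constantly and destroyed constantly. The ubiquitin ligase Mdm2, itself a p53 target, marks it for destruction, and damage or oncogene signals break that loop so that p53 accumulates and switches on genes of cell cycle arrest, repair and death. The Cdkn2a gene makes the Arf protein, which blocks Mdm2, and p16Ink4a, which with p15Ink4b from the neighbouring Cdkn2b gene inhibits Cdk4 and Cdk6 and so keeps Rb active. SV40 large T antigen binds both p53 and Rb. Cultured MEFs usually become immortal by losing either p53 or Arf.

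All 10 genes had a measured level above 0 in all 12 libraries. The p53 targets Cdkn1a and Phlda3 were higher in the libraries labelled KO than in those of WT MEFs of both sexes, Ccng1 was higher with KO in females, and Cdkn2a was lower with KO in males. Male KO MEFs had less of most of these transcripts than female KO MEFs, among them Mdm2 and Cdkn1a. Between the KO groups the calls of Trp53, Cdkn2a and Phlda3 were lost when some single libraries were left out. So was that of Phlda3 between the male groups. The death effectors Bax and Bbc3 were not called in any comparison.

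TPM are levels scaled for transcript length and library total, so they can be compared between genes, but they carry no read total and the depth behind each value is unknown. Fold changes are log2 differences of log2(TPM+1) means, with their standard error (SE), and adjusted p-values are from limma with Benjamini-Hochberg adjustment over 12504 genes, with a call at an adjusted p under 0.05. Sirt3 itself, read to check the labels, was not lower in the KO libraries, at 6.59, 7.17 and 9.07 TPM in WT males, 8.88, 10.9 and 11.00 in KO males, 7.40, 7.60 and 8.69 in WT females and 7.57, 9.06 and 8.19 in KO females, with a fold change of 0.39 (SE 0.14, limma adjusted p = 0.0981) in males and 0.059 (SE 0.11, adjusted p = 0.772) in females. KO is used here for the libraries that carry this label, since TPM summed over a gene cannot tell an intact transcript from one that lacks exons. The study also shows an immunoblot of Sirt3 protein in its MEFs, which was not read here. Fibroblast markers stood high, with 10 of 11 at a mean of 1 TPM or more and Lum under it, and their summed level was 10251 to 11369 TPM in male WT, 12390 to 13093 in male KO, 8194 to 8338 in female WT and 10417 to 10676 in female KO libraries. Of 6 epithelial markers, 3 (Krt19, Krt18 and Epcam) reached a mean of 1 TPM and all 3 fell with KO in both sexes, while of the 10 fibroblast markers tested 4 rose and 1 fell in males and 8 rose in females. Over all genes, 21.6% were called in males and 11.5% in females. Their part in the results for the 10 checkpoint genes was not tested. The summed epithelial level was 76.1 to 77.8 TPM in male WT, 7.90 to 8.78 in male KO, 19.8 to 22.9 in female WT and 7.40 to 10.3 in female KO libraries, and Cdh1 stayed at or under 0.395 TPM throughout. Kdr was the 1 of 5 endothelial markers and Cd68 the 1 of 6 blood cell markers with a mean of 1 TPM or more over the 12 libraries. Kdr fell with KO in females and was not called in males, and Cd68 was called in neither sex. Csf1r, a receptor of macrophages, had a mean under 1 TPM and was not tested, but stood at 1.25, 1.35 and 1.64 TPM in KO males, above 0.173, 0.286 and 0.165 in WT males, 0.0973, 0.254 and 0.139 in WT females and 0.203, 0.346 and 0.312 in KO females. The macrophage marker Adgre1 was at 0 in all 12 libraries. The summed level of the endothelial list was 1.85 to 2.11 TPM in male WT, 1.396 to 1.632 in male KO, 4.72 to 5.76 in female WT and 1.87 to 2.25 in female KO libraries, and that of the blood cell list was 4.93 to 8.08, 6.10 to 11.4, 6.38 to 9.91 and 4.18 to 7.66 TPM in the same groups.

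Sequences before the transcription starts were searched for the letters p53 and E2F factors recognize. RefSeq windows of GRCm38.p6, from 250 bases before a transcription start to 50 after, were available for 9 of the 10 members (13 windows, since some have several starts). A p53 response element is 2 copies of the p53 consensus decamer, a palindrome read alike on both strands. The decamer was found in 5 of the 13 windows, those of Trp53, Mdm2, the upstream start of Cdkn1a, Ccng1 and Bax, and in 8.36% of all 32817 windows. A 20-base element of 2 adjoining decamers, with at most 1 departure from the consensus (a limit set with these windows in view), was found in 2 member windows and in 29 windows (0.0884%) of all. Those 2, of Cdkn1a and Ccng1, are shown with the element in capitals. The Mdm2 stretch, with its decamer in capitals, is shown as an example of a window with a decamer but no 20-base element. The windows of Trp53 and Bax, not shown, were alike in this.
Cdkn1a upstream start: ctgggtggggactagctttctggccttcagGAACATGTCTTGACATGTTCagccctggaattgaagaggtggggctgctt
Ccng1: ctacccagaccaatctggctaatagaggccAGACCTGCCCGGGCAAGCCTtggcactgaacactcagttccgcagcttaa
Mdm2: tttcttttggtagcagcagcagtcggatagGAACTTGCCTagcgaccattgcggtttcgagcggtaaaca
In Cdkn1a the element lies 51 to 32 bases before the start, within chr17:29090898-29090977 on the plus strand. The Ccng1 element lies 195 to 176 bases before its start, within chr11:40755432-40755511 on the minus strand. For Mdm2 the decamer lies 186 to 177 bases before the start, within chr10:117710905-117710974 on the minus strand. Searches for the E2F letters TTTCCCGC, TTTCGCGC, TTTGCCGC and TTTGGCGC on both strands matched 1 of the 13 member windows and 2.26% of all windows. It is the Arf start of Cdkn2a, where no p53 decamer lies, shown with the match in capitals, 99 to 92 bases before the start within chr4:89294681-89294748 on the minus strand.
Cdkn2a, Arf start: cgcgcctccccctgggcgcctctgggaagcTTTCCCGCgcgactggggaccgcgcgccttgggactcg
A match describes these letters only and is not evidence that a factor was bound. Only these windows were searched, so the lack of an element in 1 says nothing of sequence elsewhere in the gene.

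**Figure D1:**
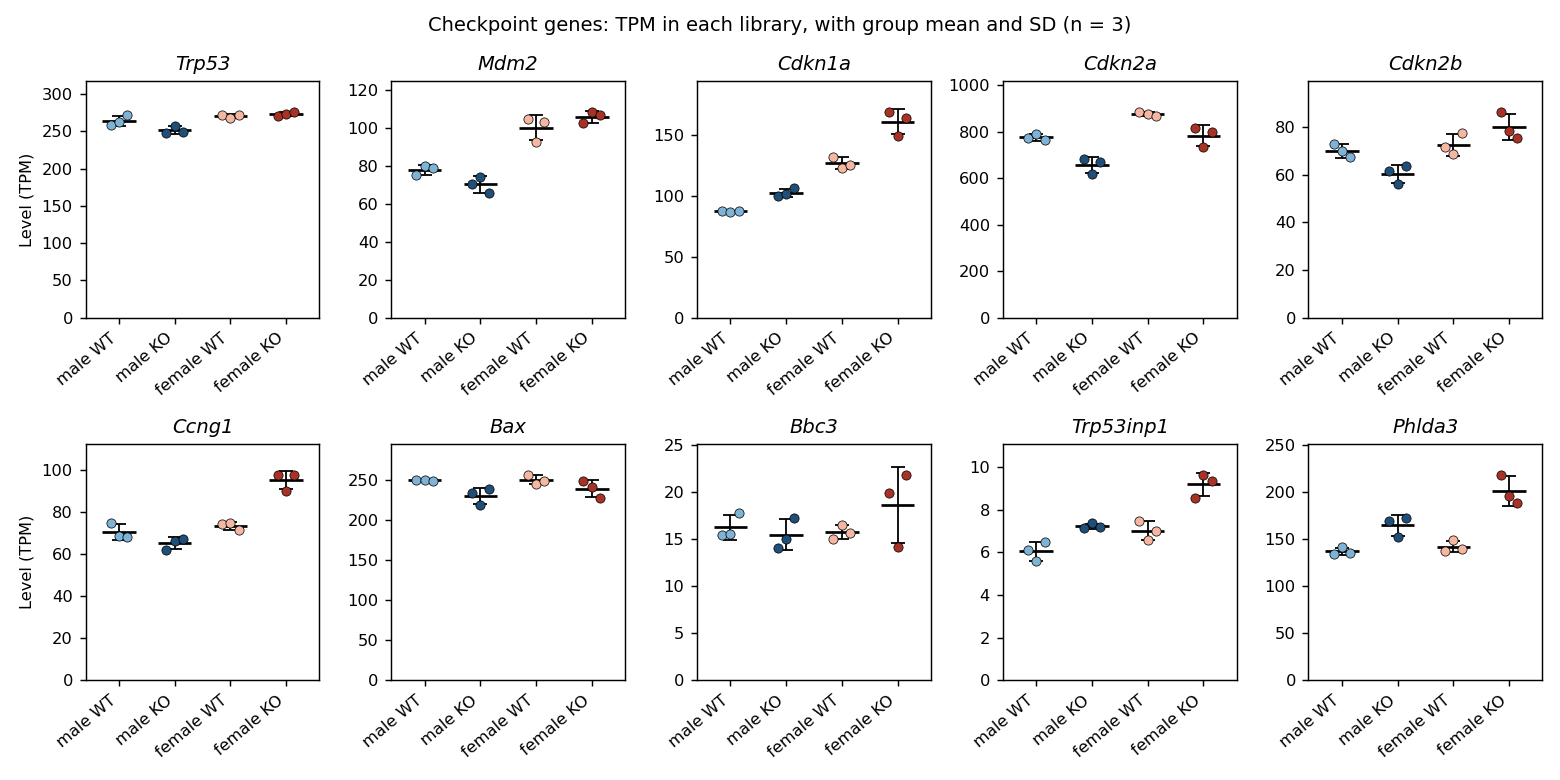
Level (TPM, linear axis from 0) of the 10 checkpoint genes in each of the 12 libraries, by group, with points for libraries and bars for the group mean and SD (n = 3). Cdkn1a steps up from male WT (87.0 to 87.8 TPM) through male KO and female WT to female KO (149.7 to 169 TPM) without overlap, whereas Trp53 stays between 248 and 276 TPM.

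Trp53, which encodes p53 (ENSMUSG00000059552.13, chr11:69580359-69591873, plus strand of GRCm38), was among the more abundant transcripts. It stood at 258, 262 and 271 TPM in WT males, 248, 257 and 249 in KO males, 272, 267 and 272 in WT females and 271, 273 and 276 in KO females, higher than 95.4% of the tested genes. The male KO libraries were the lowest 3 of the 12, and the other groups overlapped. The KO fold change of Trp53 was -0.069 (SE 0.035, limma adjusted p = 0.217) in males, with a 95% interval of -0.15 to 0.015, and 0.014 (SE 0.025, adjusted p = 0.772) in females, with an interval of -0.046 to 0.074. Between the KO groups Trp53 was lower in males, with a log2 difference of -0.12 (SE 0.030, limma adjusted p = 0.0411). That call was lost without any 1 KO library other than male KO replicate 2, with adjusted p = 0.105 and 0.117 without male KO replicates 1 and 3 and 0.0913, 0.105 and 0.123 without female KO replicates 1, 2 and 3. It was also lost without the mean-variance trend (adjusted p = 0.165). Between the WT groups the difference was -0.035 (SE 0.031, adjusted p = 0.523). In bulk RNA, fewer cells with a transcript and less of it per cell cannot be told apart.

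Mdm2, the p53 ubiquitin ligase (ENSMUSG00000020184.15, chr10:117688875-117710758, minus strand), was lower in male than in female MEFs of both genotypes. Its levels were 75.2, 80.1 and 78.7 TPM in WT males, 70.7, 74.4 and 65.7 in KO males, 104, 92.6 and 103 in WT females and 102, 108 and 107 in KO females. All 6 male libraries lay below all 6 female ones, and male KO below male WT, while the female groups overlapped. Male minus female, the log2 difference was -0.35 (SE 0.057, limma adjusted p = 0.00884) in WT and -0.59 (SE 0.056, adjusted p = 0.000589) in KO. The KO fold change was -0.15 (SE 0.058, adjusted p = 0.118) in males and 0.084 (SE 0.055, adjusted p = 0.381) in females, and neither passed, nor did the difference between them, -0.23 (SE 0.082, adjusted p = 0.0898). Mdm2 for each unit of Trp53 TPM ran from 0.264 to 0.305 in the 6 male and from 0.346 to 0.398 in the 6 female libraries.

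Cdkn1a encodes p21, the inhibitor of cyclin-dependent kinases through which p53 arrests the cell cycle (ENSMUSG00000023067.13, chr17:29090976-29100727, plus strand). It rose with KO in both sexes, from a lower level in males. Cdkn1a stood at 87.4, 87.0 and 87.8 TPM in WT males, 100.2, 102 and 106 in KO males, 132, 123 and 125 in WT females and 169, 149.7 and 164 in KO females. No 2 groups overlapped. With KO, Cdkn1a rose by 0.23 (SE 0.041, limma adjusted p = 0.00850) in males and by 0.34 (SE 0.054, adjusted p = 0.0117) in females, and the effects did not pass as different, -0.11 (SE 0.068, adjusted p = 0.363) with a 95% interval of -0.26 to 0.040. Male MEFs were lower than female MEFs, with log2 differences of -0.53 (SE 0.040, adjusted p = 0.000313) in WT and -0.64 (SE 0.055, adjusted p = 0.000348) in KO. A transcript model on the opposite strand shares 273 exonic bases with Cdkn1a, and the counting is not stated to use strand. No alternative changed a call for this gene.

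Ccng1, which encodes cyclin G1, a p53-induced partner of phosphatase 2A (ENSMUSG00000020326.7, chr11:40748552-40755311, minus strand), rose with KO in females, and the male effect differed from the female one. Its values were 74.6, 68.5 and 68.2 TPM in WT males, 61.9, 66.0 and 67.3 in KO males, 74.0, 74.5 and 71.3 in WT females and 97.3, 90.0 and 97.7 in KO females. The 3 female KO libraries were the highest of the 12, the female WT group overlapped male WT, and male KO lay just under male WT without overlap. The KO fold change of Ccng1 was 0.37 (SE 0.046, limma adjusted p = 0.00439) in females and -0.11 (SE 0.058, adjusted p = 0.221) in males. The sex by genotype interaction, the male KO effect minus the female one, was -0.48 (SE 0.073, limma adjusted p = 0.00101), and this difference held under every alternative tried. The male minus female log2 difference was -0.54 (SE 0.054, adjusted p = 0.000764) in KO, against -0.058 (SE 0.050, adjusted p = 0.506) in WT.

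Phlda3, a p53 target that competes with Akt for membrane lipid and so represses it (ENSMUSG00000041801.5, chr1:135766119-135769136, plus strand), rose with KO in both sexes. It stood at 134, 141 and 135 TPM in WT males, 169, 152 and 173 in KO males, 138, 149 and 139 in WT females and 218, 195 and 188 in KO females. Both KO groups lay above both WT groups, female KO above male KO, and the WT groups overlapped. With KO, Phlda3 rose by 0.49 (SE 0.062, limma adjusted p = 0.00469) in females and by 0.26 (SE 0.056, adjusted p = 0.0173) in males. The male call was lost without male WT replicate 1 or 3 (adjusted p = 0.0575 and 0.0624), without male KO replicate 1 or 3 (0.0595 and 0.0595), with no filter on low values (0.0566) and without the trend (0.0501). The effects did not pass as different between the sexes, -0.23 (SE 0.088, adjusted p = 0.118). Between the WT sexes the log2 difference was -0.051 (SE 0.043, adjusted p = 0.506). In KO, males were lower at -0.28 (SE 0.071, adjusted p = 0.0380), a call lost without male KO replicate 1, 2 or 3 (adjusted p = 0.0800, 0.0863 and 0.0628), without female KO replicate 1 or 2 (0.0918 and 0.0827), with no filter (0.130), without the trend (0.0860) and with median-of-ratios scaling (0.0707).

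Trp53inp1 encodes a stress-induced nuclear protein that enhances p53 activity and also takes part in autophagy (ENSMUSG00000028211.11, chr4:11156431-11174379, plus strand). It was the least expressed of the 10, at 6.12, 5.59 and 6.47 TPM in WT males, 7.12, 7.37 and 7.20 in KO males, 7.46, 6.58 and 7.02 in WT females and 8.57, 9.65 and 9.35 in KO females. In each sex the KO libraries lay above the WT libraries of that sex without overlap. No comparison passed: the fold change was 0.22 (SE 0.10, limma adjusted p = 0.168) in males and 0.35 (SE 0.094, adjusted p = 0.0636) in females. The female difference passed in the fit of all 12 libraries (adjusted p = 0.0231) and without the trend (0.0374). Male minus female, the log2 difference was -0.18 (SE 0.10, adjusted p = 0.2999) in WT and -0.31 (SE 0.092, adjusted p = 0.0672) in KO, and the interaction was -0.12 (SE 0.12, adjusted p = 0.612). The difference in KO passed with quantile normalization (adjusted p = 0.0378), without the trend (0.0244) and in the fit of all 12 libraries (0.0280).

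The 2 death effectors were called in none of the 5 comparisons. Bax, which opens the outer mitochondrial membrane in apoptosis (ENSMUSG00000003873.11, chr7:45461697-45466898, minus strand), stood at 249.9, 249.9 and 249 TPM in WT males, 234, 219 and 238 in KO males, 257, 245 and 249 in WT females and 248, 242 and 228 in KO females. The KO libraries of males lay below the male WT libraries, and the female groups overlapped. Its KO fold change was -0.12 (SE 0.040, limma adjusted p = 0.0868) in males, with a 95% interval of -0.21 to -0.021, and -0.065 (SE 0.039, adjusted p = 0.343) in females, with an interval of -0.16 to 0.029. A gene model at a mean of 0 TPM shares 192 exonic bases with Bax on the same strand. Bbc3 encodes Puma, a BH3-only protein that frees Bax from its inhibitors (ENSMUSG00000002083.13, chr7:16308393-16318205, plus strand), and stood at 15.4, 15.6 and 17.7 TPM in WT males, 14.04, 15.02 and 17.3 in KO males, 15.04, 16.5 and 15.6 in WT females and 19.9, 14.1 and 21.8 in KO females. All 4 groups overlapped, and female KO replicate 2 lay apart below the other female KO libraries. Its fold change was -0.071 (SE 0.10, adjusted p = 0.670) in males and 0.21 (SE 0.15, adjusted p = 0.432) in females, with intervals of -0.31 to 0.17 and -0.16 to 0.58. The female value was 0.39 (SE 0.084, adjusted p = 0.0595) without female KO replicate 2 and 0.089 (SE 0.15, adjusted p = 0.763) without female KO replicate 3, and the male value ran from -0.15 to -0.0098 when 1 library was left out. Male minus female, the log2 difference of Bax was -0.0042 (SE 0.030, adjusted p = 0.951) in WT and -0.055 (SE 0.047, adjusted p = 0.489) in KO, and that of Bbc3 0.044 (SE 0.082, adjusted p = 0.780) and -0.24 (SE 0.16, adjusted p = 0.383). The signs of both WT differences turned under some alternatives. The interaction was -0.051 (SE 0.056, adjusted p = 0.648) for Bax and -0.28 (SE 0.19, adjusted p = 0.414) for Bbc3.

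**Figure D2:**
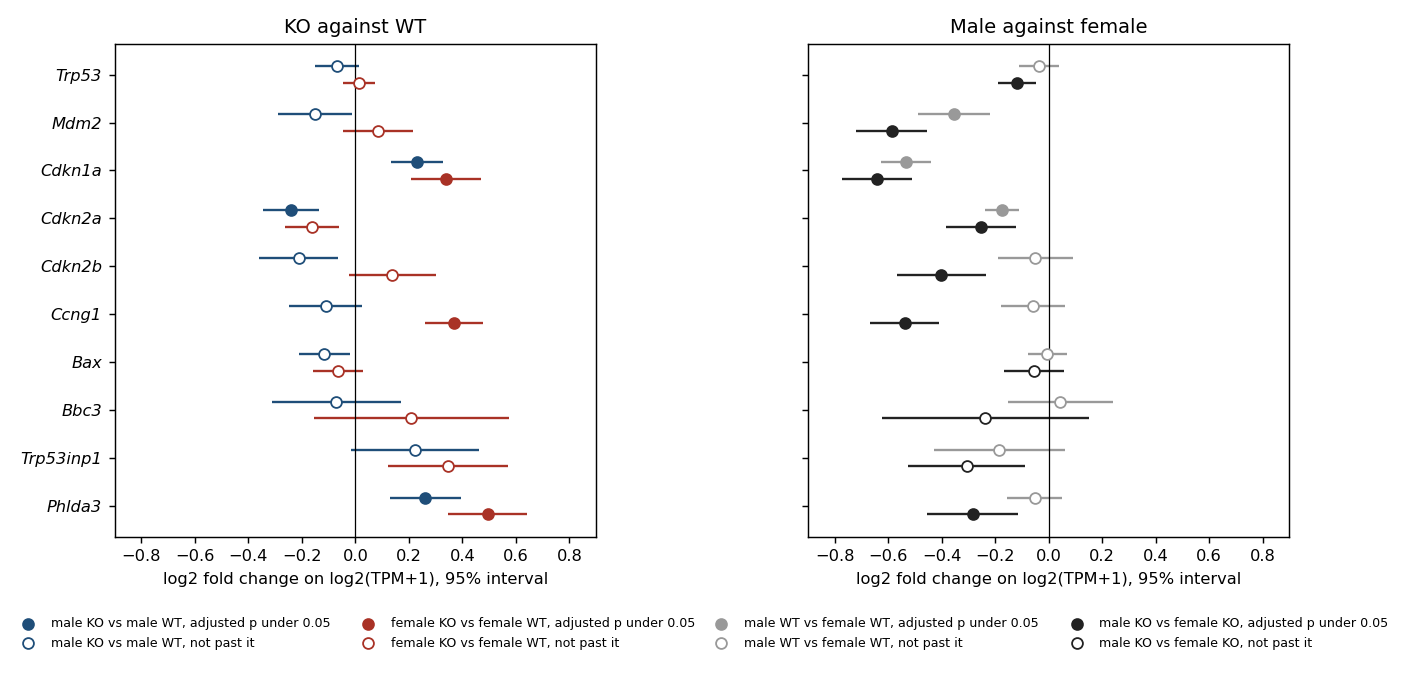
Log2 fold changes of the 10 checkpoint genes on log2(TPM+1), KO against WT in each sex (left) and male against female in each genotype (right), with 95% intervals from limma and filled points for an adjusted p under 0.05. Cdkn1a and Phlda3 lie right of 0 in both sexes on the left, and on the right all 10 KO differences lie left of 0.

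Cdkn2a (ENSMUSG00000044303.6, chr4:89274471-89294653, minus strand) was the most expressed of the 10, at 774, 791 and 763 TPM in WT males, 684, 617 and 671 in KO males, 885, 877 and 865 in WT females and 816, 733 and 799.9 in KO females, above 98.5% of the tested genes. Its transcripts start 12.461 kb apart, for Arf and for p16Ink4a, and share 575 exonic bases, 64.3% of the Arf and 67.5% of the Ink4a transcript, in different reading frames. The gene-level TPM sums them, so Arf and p16Ink4a cannot be told apart. Male KO was the lowest group and female WT the highest, neither overlapping another, while male WT overlapped female KO. In males Cdkn2a fell by 0.24 (SE 0.044, limma adjusted p = 0.00927) with KO. The female difference, -0.16 (SE 0.042, adjusted p = 0.0550), did not pass, though no KO library reached a WT library, and it passed in the fit of all 12 libraries (adjusted p = 0.0339) and with a minimum mean of 5 TPM (0.0452). The effects in the sexes did not pass as different, -0.078 (SE 0.063, adjusted p = 0.503). Males were lower than females in WT, at -0.17 (SE 0.026, adjusted p = 0.00665), which did not pass without the trend (adjusted p = 0.0656), and in KO, at -0.25 (SE 0.055, adjusted p = 0.0224). The KO call was lost without male KO replicate 2 or 3 (adjusted p = 0.0514 and 0.0583), without female KO replicate 1 or 3 (0.0755 and 0.0773), with no filter (0.0939), without the trend (0.0732) and with median-of-ratios scaling (0.0511).

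Cdkn2b, the neighbouring p15Ink4b gene (ENSMUSG00000073802.4, chr4:89306299-89311039, minus strand), had KO effects that differed between the sexes. Its levels were 73.1, 70.0 and 67.3 TPM in WT males, 61.5, 56.1 and 63.6 in KO males, 71.7, 68.6 and 77.7 in WT females and 86.4, 78.3 and 75.6 in KO females. Male KO lay below every other group, and each other group overlapped the next. The KO fold change was -0.21 (SE 0.062, limma adjusted p = 0.0516) in males and 0.14 (SE 0.068, adjusted p = 0.247) in females, and neither passed, but their difference did, -0.35 (SE 0.10, adjusted p = 0.0318). The male value passed with a minimum mean of 5 TPM (adjusted p = 0.0457) and in the fit of all 12 libraries (0.0370). The interaction was lost with no filter (adjusted p = 0.0550), without the trend (0.0528), without male WT replicate 1 or 2 (0.0735 and 0.0591), without male KO replicate 2 (0.0644), without female WT replicate 1 or 2 (0.0677 and 0.0754) and without female KO replicate 1 or 2 (0.0720 and 0.0502). Male minus female, the log2 difference of Cdkn2b was -0.40 (SE 0.070, adjusted p = 0.00955) in KO, against -0.049 (SE 0.059, adjusted p = 0.648) in WT.

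The locus is often deleted whole in immortal lines, and its transcripts were present in all 12 libraries here. Cdkn2a TPM was 9.36 to 12.8 times Cdkn2b TPM. The gap between the 2 genes is 11.646 kb. On the far side of Cdkn2a, 93.390 kb away, lies Mtap, a methionine salvage enzyme often deleted together with Cdkn2a, at 127, 118 and 125 TPM in WT males, 95.03, 102 and 92.4 in KO males, 119.8, 120.1 and 119 in WT females and 105, 106 and 105 in KO females. With KO, Mtap fell by 0.35 (SE 0.053, limma adjusted p = 0.00438) in males and fell by 0.18 (SE 0.029, adjusted p = 0.0121) in females, with no overlap between KO and WT in either sex. Dmrta1, the neighbour beyond Cdkn2b, had a mean under 1 TPM and was not tested.

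**Figure D3:**
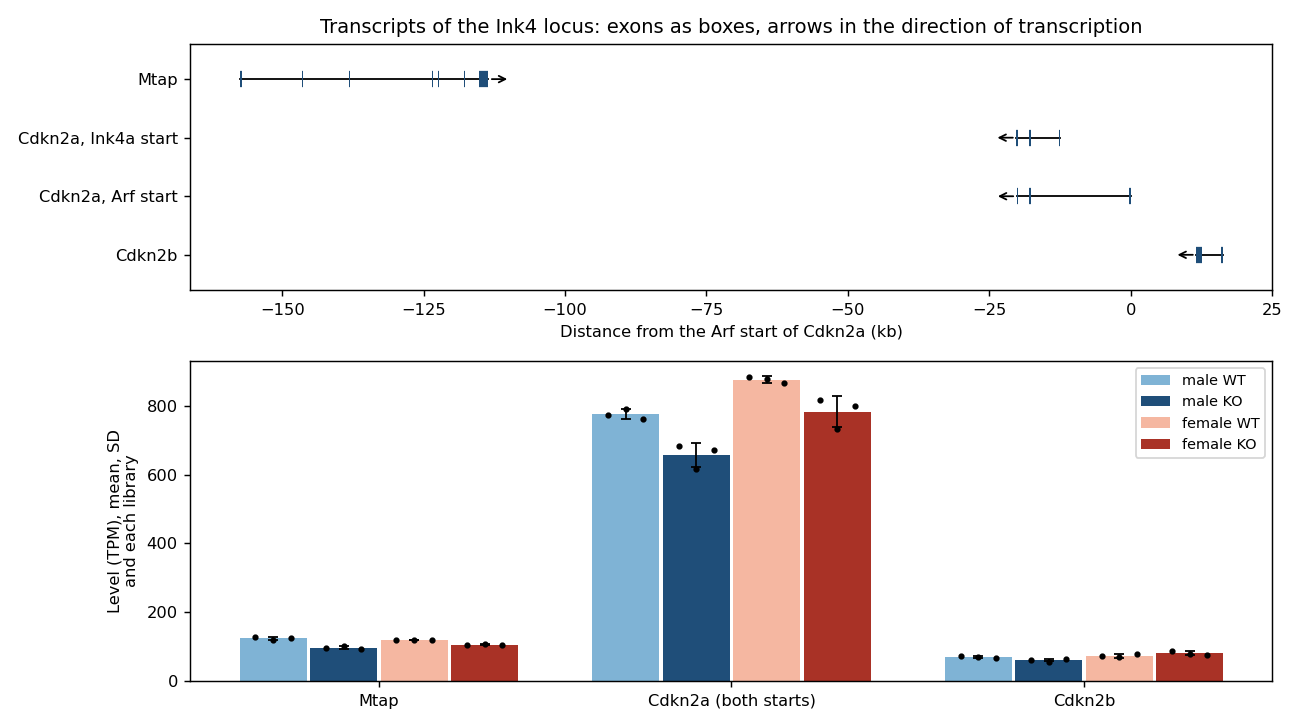
Top, transcripts of the Ink4 locus by distance in kb from the Arf start of Cdkn2a, with exons as boxes. Bottom, TPM of Mtap, Cdkn2a and Cdkn2b by group (bar for the mean from 0, line for the SD, points for 3 libraries): Cdkn2a is 9.36 to 12.8 times Cdkn2b in single libraries, and male KO is the lowest group for all 3 genes.

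Cdkn2a made up most of the summed TPM of the 7 genes of the Ink4 and Cip/Kip inhibitors (Cdkn1a, Cdkn1b, Cdkn1c, Cdkn2a, Cdkn2b, Cdkn2c and Cdkn2d). Its TPM includes transcripts of Arf, which is not such an inhibitor, so the shares and sums here are not of inhibitor transcripts alone. The part of p16Ink4a in them is unknown. The share of Cdkn2a was 66.1% ± 0.375 in male WT, 64.8% ± 0.982 in male KO, 68.0% ± 0.0913 in female WT and 62.9% ± 0.736 in female KO MEFs (SD, n = 3 each). The share of Cdkn1a was 7.44% ± 0.134, 10.1% ± 0.459, 9.87% ± 0.307 and 12.9% ± 0.217 in the same groups. The female KO libraries thus had the lowest share of Cdkn2a and the highest of Cdkn1a. The sum over the 7 genes was 1174 ± 16.1 TPM in male WT, 1014 ± 39.7 in male KO, 1287 ± 12.7 in female WT and 1245 ± 59.1 in female KO MEFs.

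Counted over the 10, 2 rose (Cdkn1a and Phlda3) and 1 fell (Cdkn2a) with KO in males, where 21.6% of all tested genes were called, 10.7% higher and 10.9% lower. The median fold change of the 10 was -0.091, beside -0.015 over all genes. In females 3 rose (Cdkn1a, Ccng1 and Phlda3) and 0 fell, against 11.5% of all genes called, 5.63% higher and 5.84% lower, with medians of 0.17 and -0.023. The fit of all 12 libraries called 5 of the 10 in females, with Cdkn2a and Trp53inp1 added. Leaving out 1 library of the male comparison left 2 or 3 of the 10 called. It left 1813 to 2318 of all genes called, beside 2707 with none left out.

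Between the sexes, the 10 were called in 1 direction. Male WT MEFs were lower than female WT in 3 (Mdm2, Cdkn1a and Cdkn2a) and higher in 0, where 12.8% of all genes were called, 6.26% higher and 6.56% lower, and the medians were -0.055 for the 10 and -0.018 for all. In KO, males were lower in 7 (Trp53, Mdm2, Cdkn1a, Cdkn2a, Cdkn2b, Ccng1 and Phlda3) and higher in 0, where 16.6% of all were called, 8.17% higher and 8.39% lower, with medians of -0.30 and -0.013. That count went to 4 without male KO replicate 3 or without female KO replicate 1, and to 5 without any other 1 KO library. In those fits 1328 to 1824 of all genes were called, beside 2070 with none left out. The interaction was called in 2, both lower (Cdkn2b and Ccng1), where 13.0% of all were called, 6.70% higher and 6.33% lower, with medians of -0.18 and 0.0047. Without male WT replicate 1 or 2, male KO replicate 2, female WT replicate 1 or 2 or female KO replicate 1 or 2 it was called in 1. Over all genes those fits called it in 1381 to 1559, beside 1629 with none left out. These comparisons share libraries, so a gene called in several of them is not independent evidence. Medians over all genes moved by less than 0.1 under each scaling.

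Other p53 targets were taken from lists written by hand. Of 16 targets of arrest and repair, all tested, 5 rose and 2 fell with KO in males, and 2 rose and 2 fell in females. Over all genes 21.6% were called in males, 10.7% higher and 10.9% lower, and 11.5% in females, 5.63% higher and 5.84% lower. The medians were 0.056 and -0.0038, beside -0.015 and -0.023 over all genes. Gadd45a, which binds PCNA in DNA repair, rose in males, at 30.6, 26.1 and 27.5 TPM in WT males, 58.8, 51.4 and 55.8 in KO males, 22.7, 29.5 and 25.5 in WT females and 32.3, 26.9 and 21.5 in KO females, a fold change of 0.96 (SE 0.080, limma adjusted p = 0.000301) in males beside 0.043 (SE 0.16, adjusted p = 0.896) in females. Ddb2, a sensor of ultraviolet damage, rose in males by 0.71 (SE 0.11, adjusted p = 0.00565) and Sesn2, a stress-induced inhibitor of mTORC1, by 0.57 (SE 0.070, adjusted p = 0.00171). Gadd45a and Sesn2 are also targets of Atf4. Btg2, an antiproliferative co-regulator, rose in both sexes, by 0.52 (SE 0.085, adjusted p = 0.00587) and 0.38 (SE 0.080, adjusted p = 0.0296). In females Psrc1, a microtubule-binding protein, rose by 0.42 (SE 0.060, adjusted p = 0.00803), while Ier5, an immediate early gene, fell by 0.32 (SE 0.046, adjusted p = 0.00782) and Plk2, a polo-like kinase, fell by 0.28 (SE 0.044, adjusted p = 0.0109). The male and female KO effects differed for 6 of the 16, 5 of them higher in males (Gadd45a, Ddb2, Ier5, Sesn2 and Plk2) and 1 lower (Gtse1). This interaction was called for 13.0% of all tested genes, 6.70% higher and 6.33% lower.

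Among 20 targets of death and metabolism, 19 were tested, and 6 rose and 2 fell with KO in males, with 2 and 2 in females, while 21.6% of all genes were called in males and 11.5% in females. The medians were 0.022 and 0.075. St14, an epithelial serine protease, had a mean under 1 TPM and was not tested, at 0.666, 0.750 and 0.664 TPM in WT males, 0.651, 0.613 and 0.627 in KO males, 1.27, 0.963 and 1.11 in WT females and 0.855, 0.999 and 1.58 in KO females. Gdf15, a secreted stress cytokine and also an Atf4 target, stood at 2.60, 3.72 and 3.46 TPM in WT males, 10.7, 10.6 and 9.33 in KO males, 4.03, 5.15 and 4.32 in WT females and 5.55, 6.68 and 5.45 in KO females, and rose in males by 1.40 (SE 0.14, limma adjusted p = 0.000625). Fas, a death receptor, rose there by 1.09 (SE 0.15, adjusted p = 0.00280) and Dram1, a lysosomal protein of autophagy, by 0.88 (SE 0.14, adjusted p = 0.00558). The female values of the 3 were 0.33 (SE 0.13, adjusted p = 0.169), 0.65 (SE 0.19, adjusted p = 0.0806) and 0.32 (SE 0.12, adjusted p = 0.152). In females Ephx1, a microsomal epoxide hydrolase, rose by 0.85 (SE 0.065, adjusted p = 0.000586) and Eda2r, a TNF receptor family member, by 0.56 (SE 0.12, adjusted p = 0.0329), while Pmaip1, which encodes Noxa, fell by 0.35 (SE 0.075, adjusted p = 0.0308). Perp fell in both sexes, from 3.56, 4.15 and 4.16 TPM in the WT to 0.660, 0.634 and 0.351 in the KO libraries of males and from 4.18, 3.76 and 5.02 in female WT to 1.63, 1.83 and 2.63 in female KO, fold changes of -1.68 (SE 0.16, adjusted p = 0.000601) and -0.82 (SE 0.17, adjusted p = 0.0294). Perp is a desmosomal membrane protein of epithelia as well as a p53 target, and the 3 measured epithelial markers moved the same way with KO. Their part in this result was not tested.

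**Figure D4:**
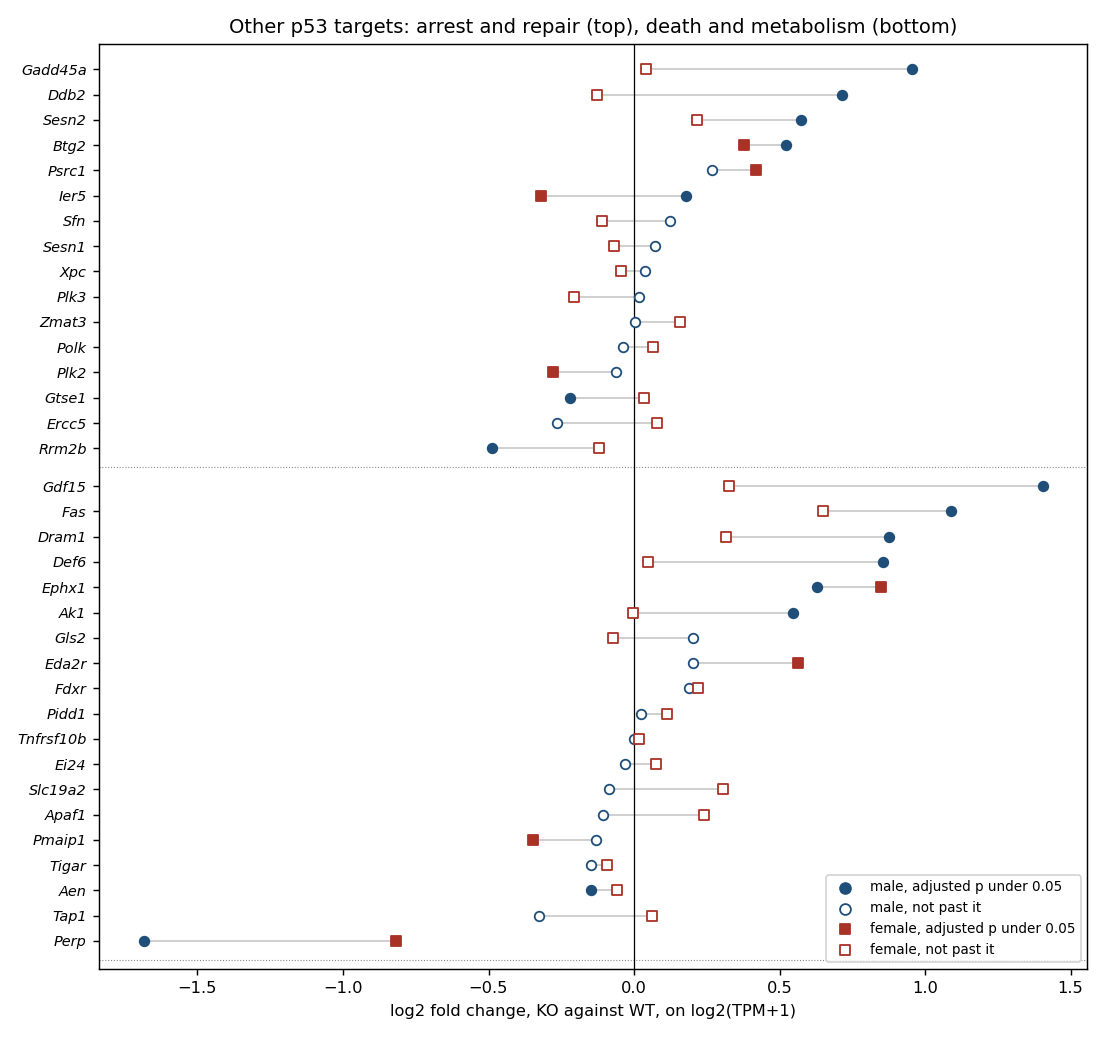
Log2 fold change of KO against WT on log2(TPM+1) for the tested p53 targets outside the 10 genes, male as circles and female as squares, filled at an adjusted p under 0.05. Gdf15 and Gadd45a lie far right in males, at 1.403 and 0.96, and Perp far left in both sexes.

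Among regulators of p53 itself no gene passed with KO. Of 17 (Mdm4, Atm, Chek2, Ep300 and others), 15 were tested and 0 were called in either sex, while 21.6% of all genes were called in males and 11.5% in females. The p53 relatives Trp63 and Trp73 lay under the filter. An unadjusted p under 0.05 was found for 3 in males and 1 in females by the same limma test. Hipk2, a kinase that phosphorylates p53, was lower in male than in female MEFs, at -0.62 (SE 0.069, limma adjusted p = 0.00180) in WT and -0.75 (SE 0.094, adjusted p = 0.00217) in KO. Of 12 Bcl2 family genes 9 were tested, and 1 fell in males and 1 in females, where 10.9% and 5.84% of all genes were called lower. They were Bcl2l1, the anti-apoptotic Bcl-xL, at -0.37 (SE 0.077, adjusted p = 0.0150), and Bid, a BH3-only protein cut by caspases, at -0.25 (SE 0.053, adjusted p = 0.0293). Bmf, a BH3-only protein, had a mean under 1 TPM over the 12 libraries and was not tested, at 0.403, 0.376 and 0.113 TPM in WT males, 1.58, 2.27 and 1.28 in KO males, 0.432, 0.302 and 0.551 in WT females and 0.579, 0.273 and 0.511 in KO females. Its male KO libraries lay above all others. Bax TPM was 3.00 to 4.20 times Bcl2l1 TPM over the 12 libraries. Bcl2 differed between the sexes in its KO effect, by -0.67 (SE 0.17, adjusted p = 0.0210).

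Downstream of the Ink4 proteins, 23 genes of the Ink4 and Rb axis were tested. In males 0 rose and 5 fell, and in females 2 rose and 0 fell, with medians of -0.098 and 0.011. That is 5 and 2 genes of 23, where 21.6% of all genes were called in males and 11.5% in females. Ccnd1, the cyclin D1 partner of Cdk4 and Cdk6, moved in opposite directions. It stood at 63.3, 65.3 and 66.3 TPM in WT males, 30.8, 30.4 and 30.1 in KO males, 57.6, 54.5 and 56.7 in WT females and 91.0, 83.8 and 83.9 in KO females, and changed by -1.07 (SE 0.048, limma adjusted p = 1.92e-05) in males and 0.61 (SE 0.048, adjusted p = 0.000721) in females, an interaction of -1.68 (SE 0.063, adjusted p = 3.6e-08). Cdkn1c, which encodes the inhibitor p57, stood at 61.3, 73.1 and 80.7 TPM in WT males, 34.1, 28.9 and 32.1 in KO males, 84.3, 92.2 and 81.5 in WT females and 102, 98.0 and 90.3 in KO females and changed in males by -1.15 (SE 0.11, adjusted p = 0.000542), beside 0.17 (SE 0.065, adjusted p = 0.149) in females. E2f4, a repressive E2F factor, and Ccnd3, cyclin D3, changed in males by -0.39 (SE 0.047, adjusted p = 0.00151) and -0.23 (SE 0.053, adjusted p = 0.0214). Ccne1, cyclin E1, rose in females by 0.37 (SE 0.062, adjusted p = 0.0131). Cdkn2c and Cdkn1b, for p18Ink4c and p27, were higher in male than in female WT, by 0.57 (SE 0.048, adjusted p = 0.000568) and 0.32 (SE 0.061, adjusted p = 0.0172), the opposite sign to Cdkn1a and Cdkn2a. In all, 4 of the 23 were higher in male WT and 2 lower, Rb1 at -0.65 (SE 0.17, adjusted p = 0.0462) and Ccnd2 at -0.64 (SE 0.068, adjusted p = 0.00155). Cdkn2c was also higher in male than female KO, by 0.61 (SE 0.041, adjusted p = 0.000118). It was the only 1 higher there, and 6 were lower. Among these were Cdkn1c at -1.58 (SE 0.077, adjusted p = 2.76e-05), Ccnd1 at -1.47 (SE 0.052, adjusted p = 6.72e-06) and Ccnd2 at -0.86 (SE 0.095, adjusted p = 0.00120). Of all genes, 12.8% were called between the WT and 16.6% between the KO sexes.

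Genes known to act on the Ink4a/Arf locus, chiefly Polycomb subunits that silence it and factors that induce it, numbered 19, of which 18 were tested. In males 1 rose and 4 fell, and in females 1 rose and 1 fell, with medians of 0.066 and -0.063, where 21.6% of all genes were called in males and 11.5% in females. Tbx3, a T-box repressor of Arf, rose in both sexes. It stood at 2.02, 2.29 and 4.47 TPM in WT males, 15.3, 11.4 and 8.89 in KO males, 6.64, 10.5 and 7.05 in WT females and 18.8, 13.9 and 19.9 in KO females, fold changes of 1.73 (SE 0.27, limma adjusted p = 0.00520) and 1.04 (SE 0.20, adjusted p = 0.0200). Tbx2, another T-box gene of the list, went the other way but had a mean under 1 TPM and was not tested. It stood at 0.925, 1.14 and 0.736 TPM in WT males and 0.102, 0.212 and 0.293 in KO males. In females it stood at 0.817, 0.909 and 0.806 in WT and 0.491, 0.542 and 0.610 in KO. Id1, which restrains Ets factors at the Ink4a promoter, fell in both sexes, with fold changes of -0.41 (SE 0.045, adjusted p = 0.00103) and -0.12 (SE 0.028, adjusted p = 0.0456). The Polycomb subunit Eed and the basic helix-loop-helix factor Twist1 changed in males by -0.55 (SE 0.082, adjusted p = 0.00420) and -0.38 (SE 0.060, adjusted p = 0.00520). No relation between these genes and Cdkn2a was tested.

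**Figure D5:**
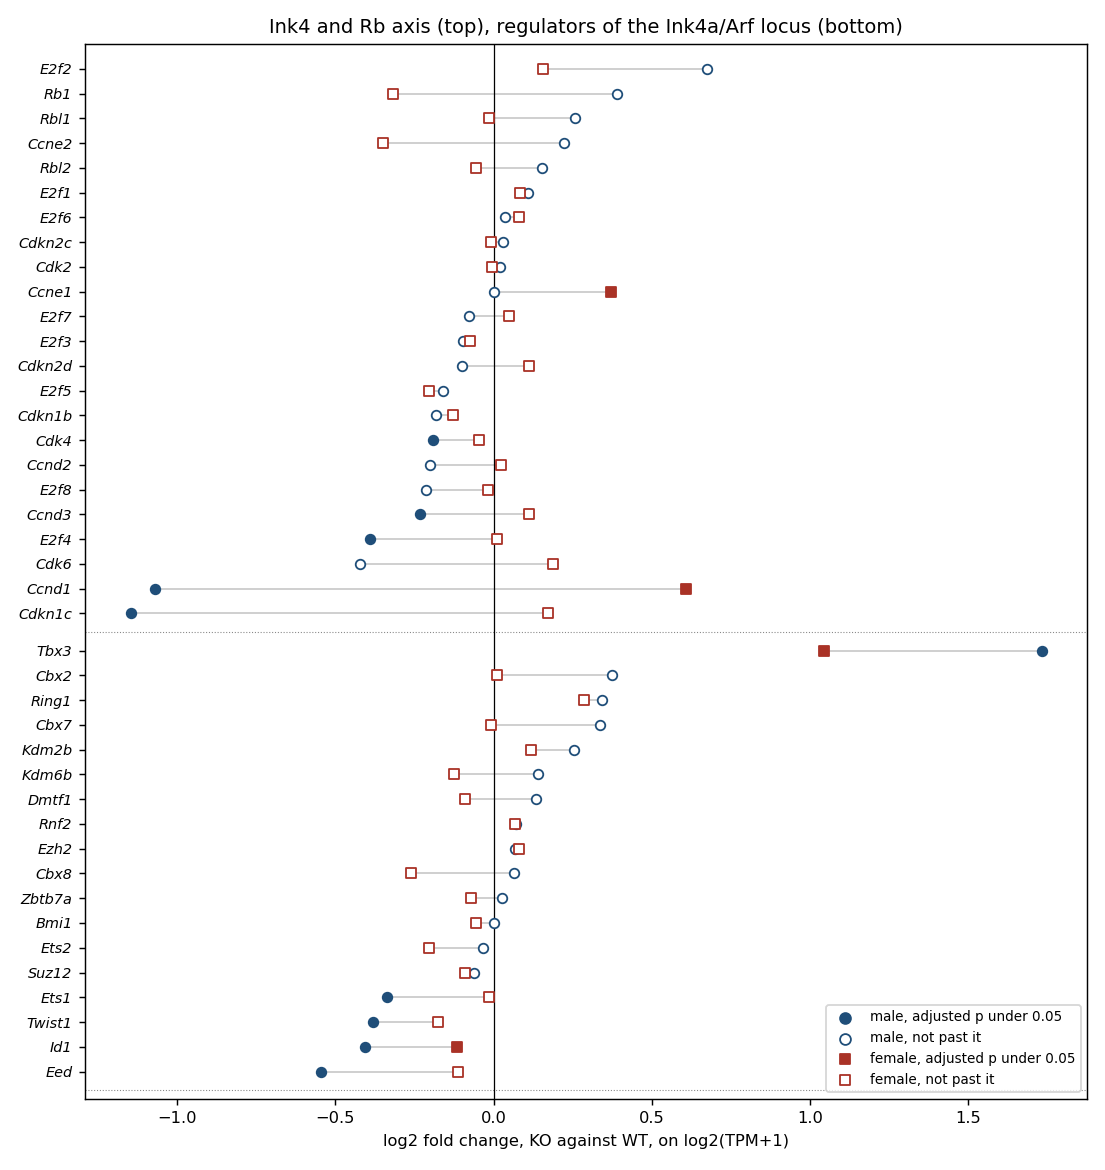
Log2 fold change of KO against WT on log2(TPM+1) for the tested genes of the Ink4 and Rb axis and for regulators of the Ink4a/Arf locus, male as circles and female as squares, filled at an adjusted p under 0.05. Ccnd1 lies at -1.07 in males and 0.61 in females, and Tbx3 lies right of 0 in both.

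Of 22 proliferation genes, 1 rose and 7 fell with KO in males, and 3 rose and 2 fell in females, with medians of -0.13 and 0.035. Of all genes, 10.7% were higher and 10.9% lower in males, and 5.63% were higher and 5.84% lower in females. Fold changes in the list ran from -0.29 to 0.15 in males and from -0.15 to 0.25 in females. Ccnb1, cyclin B1, stood at 178, 183 and 180.1 TPM in WT males, 148, 143 and 152 in KO males, 185, 182 and 180.2 in WT females and 166, 163 and 166 in KO females, with fold changes of -0.29 (SE 0.037, adjusted p = 0.00218) in males and -0.14 (SE 0.028, adjusted p = 0.0236) in females. Plk1, a mitotic kinase, changed by -0.28 (SE 0.043, adjusted p = 0.00446) in males. In females Rrm2, a ribonucleotide reductase subunit, rose by 0.25 (SE 0.043, adjusted p = 0.0153) and the helicase subunit Mcm2 by 0.18 (SE 0.030, adjusted p = 0.0128).

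Across the 12 libraries the Pearson correlation of log2(TPM+1) between pairs of the 10 ran from -0.36 (Bax with Trp53inp1) to 0.90 (Trp53 with Mdm2). It was 0.86 for Cdkn1a with Trp53inp1, 0.84 for Cdkn1a with Ccng1 and 0.80 for Trp53inp1 with Phlda3, while that of Cdkn2a with Phlda3 was -0.20. The 12 libraries form 4 groups of 3, so these values describe mostly 4 group means. Of the tested genes, F2r (0.988), Prdx6 (0.976) and Fbln2 (0.976) had the pattern most like Cdkn1a by this measure. For Mdm2 they were Mmd (0.973), Adcyap1r1 (0.972) and Itga7 (0.970), and for Trp53, Dcakd (0.956), Mprip (0.947) and Ankrd52 (0.934). Cdkn2a was followed most closely by Areg (0.971), Enc1 (0.967) and Tmcc3 (0.959), and Cdkn2b by Tubb6 (0.932), Ccnd3 (0.928) and Pcbp1 (0.917). Nearest to Ccng1 were Chst2 (0.981), Galnt18 (0.978) and Adam23 (0.971), and nearest to Phlda3, Gas6 (0.963), Irx2 (0.943) and Fstl3 (0.941). For Bax they were Nhp2 (0.977), N4bp2l1 (0.923) and Rps19bp1 (0.917), for Bbc3, Wdr75 (0.892), Gosr1 (0.862) and Lca5 (0.861), and for Trp53inp1, Cdh11 (0.953), Psmc2 (0.945) and Acat2 (0.943). None of the genes so named was another of the checkpoint genes.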

How the data were processed

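Polyadenylated RNA of 12 wells of immortalized MEFs was sequenced, 3 in each of 4 groups defined by the labels of sex and genotype. The authors quantified reads with Salmon (version 1.10.1 in the submitters' processing notes, another version in the methods) against GRCm38 and deposited TPM for 34866 genes. Each library sums to the same total, so a change in very abundant genes shifts all others, and no counting error can be given. Symbols and positions came from GENCODE M21 on GRCm38, to which 99.2% of identifiers matched.

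TPM are not counts, so log2(TPM+1) was tested for 12504 genes, those averaging 1 TPM or more, with limma 3.58.1 in R 4.3.3, with a mean-variance trend and Benjamini-Hochberg adjustment over all of them. Male KO with male WT, female KO with female WT and the sexes within each genotype were compared in fits of 6 libraries, and the sex by genotype interaction over all 12. The code was tested on simulated data. Likeness was the Pearson correlation over 12 libraries, with the 3 highest genes given for each member. Promoter windows came from RefSeq on GRCm38.p6.

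The 10 genes and the other lists, written by hand, were chosen with earlier results of these data known. From these lists 1 gene is not reported here and was left out of the counts. All 10 were named in every comparison, and of each other list at most 4 called genes per comparison, those with the largest absolute fold change. Other genes named without a call (Adgre1, Cdh1, Lum, Dmrta1, Trp63, Trp73, Mdm4, Atm, Chek2 and Ep300) are given only to describe their list, Bmf, Csf1r, St14, Tbx2, Plk2, Gtse1 and Ccnd3 in the interaction and the marker genes were named after their values were seen, and some values are set beside those of a gene named for another comparison. Alternatives were a pseudocount of 0.1, no filter, a minimum mean of 5 TPM, scaling by median of ratios or by quantiles, no trend, a single fit of all 12 libraries, a block for the replicate number and the omission of each library in turn.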

Additional observations from a re-analysis of the deposited data

Results flagged for a closer look

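For 22 genes of the lists read here, and for 5 cell type markers, the KO effect differed between the sexes by the test of the difference itself (limma interaction over 12 libraries, adjusted p under 0.05), given as the male minus the female log2 fold change. By the same test 13.0% of all 12504 tested genes were called, 6.70% higher and 6.33% lower. The 22 were 2 of 10 checkpoint genes, 6 of 16 and 4 of 19 other p53 targets and 1 of 9 Bcl2 family genes. They also held 5 of 23 genes of the Ink4 and Rb axis, 2 of 18 locus regulators and 2 of 22 proliferation genes. Of 15 p53 regulators 0 were called, and Mtap was not. Markers called were 2 of 10 fibroblast, 2 of 3 epithelial, 1 of 1 endothelial and 0 of 1 blood cell genes tested. Of the 10 checkpoint genes, those called were Ccng1, at -0.48 (SE 0.073, adjusted p = 0.00101), and Cdkn2b, at -0.35 (SE 0.10, adjusted p = 0.0318). For both, the KO mean lay below the WT mean in males and above it in females, and of those 4 differences only the female rise of Ccng1 passed by itself. The Cdkn2b interaction did not pass with no filter (limma adjusted p = 0.0550), without the trend (0.0528) or when some single libraries were left out. That of Ccng1 passed under every alternative tried.

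Among other p53 targets the male effect was higher for Gdf15 (1.08), Gadd45a (0.91), Ddb2 (0.84), Def6 (0.81), Ak1 (0.55), Ier5 (0.50) and Sesn2 (0.36), and lower for Perp (-0.86). It was also higher for Plk2 (0.22) and lower for Gtse1 (-0.25). Ier5 rose in males, at 0.18 (SE 0.046, adjusted p = 0.0337), and fell in females, at -0.32 (SE 0.046, adjusted p = 0.00782). Bcl2 differed by -0.67, with values of 2.28, 2.32 and 2.38 TPM in the WT and 1.72, 1.87 and 1.43 in the KO libraries of males, and 2.61, 2.79 and 2.88 and 3.77, 3.64 and 4.01 in those of females.

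In the cell cycle lists the difference was -1.68 for Ccnd1 and -1.32 for Cdkn1c, -0.40 for E2f4, -0.37 for Ccne1, -0.34 for Ccnd3, -0.22 for Rrm2 and -0.15 for Ccnb1. For the locus regulators Eed and Id1 it was -0.43 and -0.29. Adjusted p-values of the 22 ran from 3.6e-08 (Ccnd1) to 0.0411 (Ccnb1). The 5 markers were the fibroblast genes S100a4 (-1.70) and Col1a2 (-0.50), the epithelial Krt19 (-1.91) and Krt18 (-1.24), and the endothelial Kdr (0.93). Where each sex is 1 pair of lines, sex and line cannot be told apart in these differences.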

How the results depend on the processing

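Of 750 values of single checkpoint genes recomputed under the alternatives, 699 kept their direction and their side of the threshold. Only 223 of these 699 were calls, and the others were not called to begin with. A call was lost in 39 values, from 6 pairs of gene and comparison, and gained in 9, while 3 values turned sign. Those 3 concern differences between the WT sexes that were not called: Bax was 0.014 with median-of-ratios scaling and ran from -0.018 to 0.014 when 1 library was left out, and Bbc3 ran from -0.018 to 0.078. No call of Cdkn1a, Mdm2 or Ccng1 changed under the alternatives tried. Of the 10 genes, 5 passed between female KO and WT in the fit of all 12 libraries, where 1711 of all genes were called. The interaction passed for 1 with no filter and for 1 without the mean-variance trend. Over all genes it passed for 1563 of a larger tested set and for 1529, beside 1629 in the main fit. Leaving out 1 library gave 4 to 5 of the 10 called between the KO sexes and 1 to 2 in the interaction. Over all genes, leaving out 1 library gave 774 to 835 calls between female KO and WT (1434 with all), 1037 to 1243 between the WT sexes (1603) and 1328 to 1824 between the KO sexes (2070), in fits with fewer samples. There were 1813 to 2318 between male KO and WT (2707) and 1353 to 1559 in the interaction (1629).

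Libraries with the same number were checked for shared departures from the mean of their group. Over genes, the correlation lay between -0.057 and 0.078 in 18 pairs, with 0 above 0.1, so the numbers were not taken to pair libraries. With the replicate block 670 genes were called between female KO and WT, 2366 between male KO and WT, 1114 between the WT sexes, 1397 between the KO sexes and 1518 in the interaction. Under the block, Trp53 (adjusted p = 0.114) and Phlda3 (0.0536) no longer passed between the KO sexes by limma. The depth is unknown, so no limit from counting can be given.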
